A study of Rattus norvegicus with 2 samples.

Results

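The 48 genes described here are members of the NF-kappaB and Toll-like receptor pathways. They comprise 11 Toll-like and NOD-type receptors and co-receptors, 19 adaptors and kinases, 5 NF-kappaB subunits, 5 proteins of the IkB family, and 8 feedback regulators and target genes. They were listed by name from what the genes are known to do, with earlier results of these data known. Of the 48, 37 had a probe that could be named and 11 did not, out of 15168 named genes on the array. The genes without a matched probe were Tlr1, Nod2, Ticam1, Tirap, Tab2, Nfkb1, Rel, Relb, Nfkbiz, Tnfaip3 and Tnip2, and no level is given for them.

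The cells were described as marrow stromal cells, a type that attaches to plastic and is not of the blood lineage, grown below confluency in 6-well plates. The purity of the cultures was not tested. Some macrophage markers were bright on the control array (Lyz2 8372 units, Tyrobp 2141), while Ptprc, Itgam and Spi1 were below background on both arrays. The control array held total RNA of cells from wild-type Sprague-Dawley rats. The transgenic array held total RNA of cells from rats of the same strain with a pair of human transgenes, angiotensinogen and renin. No treatment is labelled for either group. The age and number of the rats, the number of cultures, and the promoters that drive the transgenes are not given in the sources used here. Since each group had a single array, there was no replicate check and no test, so each difference describes these 2 arrays, and 2-fold serves only as a rule of size.

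Toll-like receptors sit at the cell surface or in endosomes and recognise microbial products, and NOD proteins do so in the cytosol. Through MyD88, IRAK kinases and the TAK1 kinase they activate the IkB kinase complex, which marks IkB proteins for destruction and so frees NF-kappaB dimers to enter the nucleus. NF-kappaB then induces inflammatory genes together with its own brakes, among them IkB-alpha, A20 and IRAK-M. Marrow stromal cells are known to carry several of these receptors and to answer them with cytokine secretion.

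Signal on each array is given in intensity units as measured (scanner processed signal). A difference is transgenic minus control in log2, after each array was divided by its 75th percentile, which was 905 units in control and 1080 in transgenic. Its error is the scanner software's own estimate, averaged over a probe's spots, which covers measurement and not biology. It does not shrink with more spots and is not the spread between them. Its median was 0.20 log2 over all genes, while the median spot SD was 0.056 log2 in control and 0.055 in transgenic. No spot was saturated, and 60.2% and 60.8% of 30366 probes were well above background. Of 12 stromal markers, 11 were above background on both arrays, among them Col1a1, Vim, Thy1 and Pdgfrb, and Lepr was on neither. Their median difference was 0.25 log2, from -2.51 (Col3a1) to 3.10 (Cxcl12). Of matched markers of other lineages, those below background on both arrays were 5 of 6 for neutrophils, 5 of 7 for lymphocytes, 5 of 8 for endothelium and 6 of 22 for macrophages, which are described beside the receptors. The neutrophil gene Camp differed by 5.36 and the endothelial gene Erg by -4.39 log2.

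Of the 37 matched genes, 32 were well above background on both arrays, Ptx3 was so on the transgenic array only, and Tlr5, Tlr7, Tlr9 and Ikbkg were on neither. Of the 32, 12 (37.5%) were at least 2-fold higher in transgenic, against 10.5% of the 15501 genes or unmatched transcripts measured on both arrays. A further 5 of the 32 (15.6%) were at least 2-fold lower, against 10.3% of all. The median difference over the 32 was 0.45 log2, and over all genes it was -0.07. No matched gene was above background in control only, against 2.9% of all genes. By role, 3 of 4 IkB family genes were higher, receptors were divided between both sides, and 10 of 15 adaptors and kinases lay within 2-fold.

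**Figure D1:**
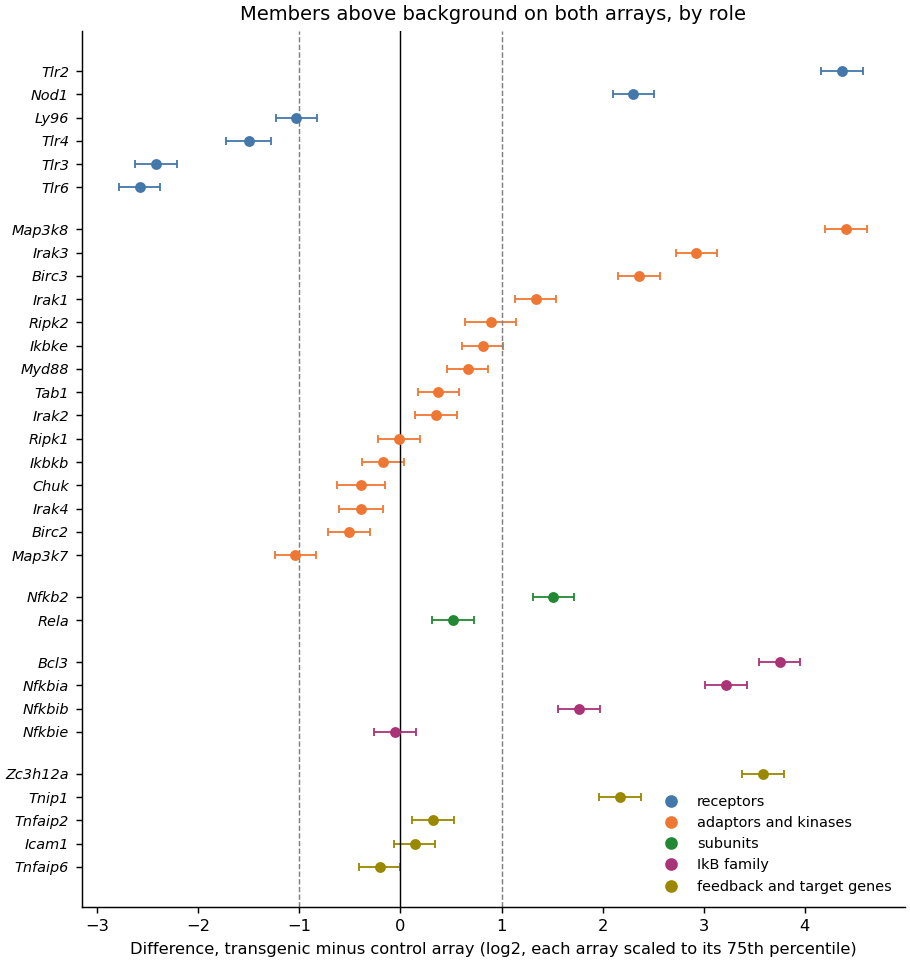
Difference of each of the 32 genes measured on both arrays (x axis, log2, transgenic minus control), grouped by role and sorted within each role. Points are single differences, bars are the scanner error (0.20 to 0.25 log2), and dashed lines mark 2-fold. The receptors run from -2.58 (Tlr6) to 4.37 (Tlr2) with none within 2-fold, and 10 of the 15 adaptors and kinases lie between the dashed lines.

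Among receptors, 2 were higher, 4 were lower and none of the 6 measured lay within 2-fold. The shares higher and lower were 33.3% and 66.7%, against 10.5% and 10.3% of all genes. Tlr2, which recognises bacterial lipoproteins as a partner of Tlr1 or Tlr6, gave 192 units in control and 4741 in transgenic. This was 20.7-fold higher (4.37 ± 0.21 log2, scanner error) and ranked 69 from the top of the 15501. Tlr2 was above background on both arrays and far brighter on the transgenic one. The 2 control spots of Tlr2 had an SD of 0.26 log2, above the scanner error. Its partner Tlr6 went the other way, with 1752 units in control and 350 in transgenic (5.97-fold lower, -2.58 ± 0.20). The gap between Tlr2 and Tlr6 was 6.95 ± 0.29 log2, a quantity that dividing a whole array by a constant cannot alter.

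The receptor for lipopolysaccharide is Tlr4 with its co-receptor MD-2, encoded by Ly96. Tlr4 gave 165 units in control and 69.5 in transgenic (2.83-fold lower, -1.50 ± 0.22). Ly96 gave 2924 units in control and 1708 in transgenic (2.04-fold lower, -1.03 ± 0.20), just past the size rule. Both parts of the complex were lower in transgenic, and a second Ly96 probe gave -1.02. Tlr3, the endosomal sensor of double-stranded RNA, gave 533 units in control and 119 in transgenic (5.33-fold lower, -2.41 ± 0.21), and its second probe gave -2.04. Nod1, the cytosolic sensor of peptidoglycan fragments, was the other receptor on the high side. It gave 605 units in control and 3562 in transgenic over 10 spots each (4.94-fold higher, 2.30 ± 0.20). Its second probe was dim in control (11.2 units, not well above background) and gave 104 units in transgenic.

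The flagellin receptor Tlr5 and the endosomal nucleic acid receptors Tlr7 and Tlr9 gave between 3.19 and 5.53 units on both arrays and did not clear the background limit. Many of these receptors are also expressed by macrophages, so macrophage markers are given beside them. Of 22 such markers, 11 were measured on both arrays. Of the 11, 7 (63.6%) were at least 2-fold lower in transgenic, against 10.3% of all genes. The 2 higher (18.2%, against 10.5% of all) were Cd14 and Cd68. Another 5 of the 22 were above background in control only, against 2.9% of all genes. The summed signal of the 22 was 19359 units in control and 6369 in transgenic. Of the transgenic sum, Cd14 gave 2426 units and Cd68 gave 2152 (590 and 602 units in control). Among the 11, Lyz2 (-7.23 log2), Tyrobp (-5.53), Fcer1g (-4.48) and Laptm5 (-2.82) differed most. Of the 5 in control only, C1qa was at least 99.4-fold lower on the scale used here (-6.64 log2), but the authors' values gave -4.61 log2. Of the defining markers, Ptprc, Itgam and Spi1 were below the background limit on both arrays, Adgre1 was above it in control only, Csf1r differed by -0.51 and Cd68 by 1.58. Their part in the lower Tlr3, Tlr4, Tlr6 and Ly96 signals was not tested. In such bulk samples, fewer cells of a type and less RNA per cell cannot be told apart.

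**Figure D2:**
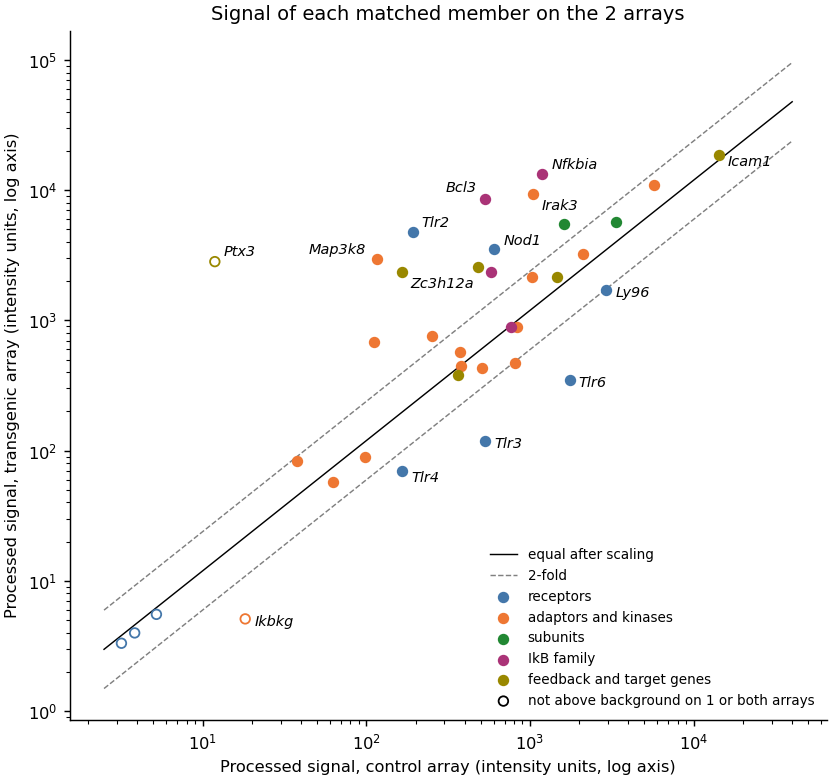
Processed signal of each of the 37 matched genes on the control array (x axis) and the transgenic array (y axis), both in intensity units on log axes. The solid line marks equal signal after scaling and dashed lines mark 2-fold; open circles were not well above background on 1 or both arrays. Tlr3, Tlr4 and Tlr6 lie below the lower dashed line, while Tlr2, Map3k8, Bcl3 and Nfkbia lie well above the upper one.

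Of 19 adaptors and kinases, 15 were measured on both arrays, with 4 higher, 1 lower and 10 within 2-fold (median 0.38 log2). The share higher was 26.7%, against 10.5% of all genes, and the share lower was 6.67%, against 10.3%. The strongest was Map3k8, the kinase Tpl2 that links NF-kappaB1 p105 to the ERK pathway. It gave 116 units in control and 2947 in transgenic (21.2-fold higher, 4.41 ± 0.21), rank 66 from the top of 15501. By contrast Map3k7, the kinase TAK1 through which the receptors reach the IkB kinases, gave 814 units in control and 473 in transgenic (2.06-fold lower, -1.04 ± 0.20). These 2 kinases were 5.45 ± 0.29 log2 apart.

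The IRAK family was uneven. Irak3, encoding IRAK-M, a family member that restrains the receptor complex, gave 1037 units in control and 9401 in transgenic (7.60-fold higher, 2.93 ± 0.20). A second Irak3 probe gave 36.5 and 392 units (3.17 log2). Irak1, a signalling kinase of the complex, gave 251 and 756 units (2.53-fold higher, 1.34 ± 0.20). Irak2 gave 375 and 570 units (0.35 ± 0.20). Irak4, the kinase that starts the cascade, gave 98.9 and 90.0 units (-0.39 ± 0.22). The largest difference in the family was therefore in its inhibitory member, with Irak3 3.32 ± 0.30 log2 apart from Irak4.

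A similar contrast held for the ubiquitin ligases cIAP1 and cIAP2, which act on RIP kinases. Birc3, encoding cIAP2, gave 112 units in control and 682 in transgenic (5.12-fold higher, 2.36 ± 0.21). Its relative Birc2, encoding cIAP1, gave 513 and 430 units (-0.51 ± 0.20), within 2-fold. The pair lay 2.86 ± 0.29 log2 apart.

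The remaining transducers lay within 2-fold. Myd88, the adaptor of most Toll-like receptors, gave 5749 units in control and 10884 in transgenic (1.59-fold higher, 0.67 ± 0.20). Ripk2, which carries the signal of NOD receptors, gave 37.8 and 83.7 units (0.89 ± 0.25), and Ripk1, of the TNF receptor arm, gave 379 and 447 units (-0.01 ± 0.21). Tab1, a partner of TAK1, gave 2105 and 3258 units (0.38 ± 0.20), and its second probe gave 0.80. The Ripk2 difference fell to 0.31 with normexp background correction and 0.44 in the authors' values. The IkB kinase relative Ikbke gave 1029 and 2158 units (0.81 ± 0.20). On the scale used here these 2 genes lay nearest to the size rule from inside. Of the classical IkB kinase complex, Ikbkb, the main catalytic subunit, gave 835 and 884 units (-0.17 ± 0.20). The other catalytic subunit, Chuk, gave 62.9 and 57.2 units (-0.39 ± 0.24). Ikbkg, the regulatory subunit NEMO, gave 18.2 and 5.11 units, below the background limit on both arrays, so no difference is given.

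Only 2 of the 5 NF-kappaB subunits had a matched probe. Nfkb2, the p100 precursor of the non-canonical pathway, gave 1608 units in control and 5467 in transgenic (2.85-fold higher, 1.51 ± 0.20). Rela, the p65 subunit of the classical dimer, gave 3335 and 5704 units (1.43-fold higher, 0.52 ± 0.20), within 2-fold, and a second, dimmer probe gave 0.79. Nfkb2 lay 0.99 ± 0.29 log2 above Rela.

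The IkB family had the highest median of the 5 roles, 2.49 log2 over 4 measured genes. Nfkbia, encoding IkB-alpha, the inhibitor that NF-kappaB resynthesises to end its own activity, gave 1192 units in control and 13253 in transgenic (9.32-fold higher, 3.22 ± 0.20). Bcl3, a nuclear IkB that binds p50 and p52 dimers, gave 532 and 8537 units (13.5-fold higher, 3.75 ± 0.20). Nfkbib, encoding IkB-beta, gave 577 and 2339 units (3.40-fold higher, 1.77 ± 0.20). Nfkbie, encoding IkB-epsilon, gave 771 and 886 units (1.04-fold lower, -0.05 ± 0.20). Of the cytoplasmic inhibitors, 2 of 3 were thus higher and Nfkbie was 3.27 ± 0.29 log2 apart from Nfkbia.

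Among feedback and target genes, 2 of 5 measured on both arrays (40%) were higher, against 10.5% of all genes. None was lower, against 10.3% of all. Zc3h12a, encoding regnase-1, an RNase that degrades inflammatory messenger RNAs, gave 164 units in control and 2351 in transgenic (12.0-fold higher, 3.58 ± 0.21). Tnip1, encoding ABIN1, a ubiquitin-binding partner of A20, gave 482 and 2592 units from 1 spot on each array (4.51-fold higher, 2.17 ± 0.20). Ptx3, a secreted pattern recognition protein, was above background in transgenic only, with 11.9 units in control and 2825 in transgenic. Against the lowest signal that counted as well above background in control (15.3 units), Ptx3 was at least 155-fold higher on this scale (7.27 log2), and its 2 control spots had an SD of 1.27 log2. The size depends on how background is treated, being 4.91 log2 with normexp background correction and 5.0 in the authors' processed values. A second Ptx3 probe gave 4.70 and 176 units. Over all genes, 3.46% of 26912 were above background on the transgenic array only.

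Not all classical targets were on the high side. Icam1, the adhesion molecule that binds leukocyte integrins, was bright on both arrays, with 14234 units in control and 18701 in transgenic over 10 spots each (1.10-fold higher, 0.14 ± 0.20). Tnfaip2 gave 1456 and 2170 units (0.32 ± 0.20). Tnfaip6, which encodes the hyaluronan-binding protein TSG-6, gave 365 and 378 units (-0.20 ± 0.21). Icam1 and Zc3h12a differed from each other by 3.44 ± 0.29 log2, so genes of this role did not share 1 size of difference.

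Since inhibitors of the pathway are known to be NF-kappaB targets themselves, the 250 bases before the transcription start were searched for NF-kappaB motifs in RefSeq promoter windows (build GRCr8), which matched 38 of the 48 genes. Each window printed below held a match, and windows without a match are not printed. They belong to 4 genes with higher signal in transgenic and to Nfkbie, which lay within 2-fold. Some higher genes held no match and are named further below. The capitals mark matches to the 10-base NF-kappaB consensus on either strand. They lie at chr6:78597073-78597322 (minus strand), chr1:88613556-88613805 (minus), chr1:255108124-255108373 (plus), chr10:39584962-39585211 (minus) and chr9:22947873-22948122 (minus), each printed in the direction of its gene and ending at the start site.
Nfkbia: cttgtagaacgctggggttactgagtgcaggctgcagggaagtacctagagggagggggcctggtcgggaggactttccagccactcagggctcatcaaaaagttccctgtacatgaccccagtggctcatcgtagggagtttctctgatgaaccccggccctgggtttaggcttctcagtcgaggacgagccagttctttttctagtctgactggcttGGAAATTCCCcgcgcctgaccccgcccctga
Bcl3: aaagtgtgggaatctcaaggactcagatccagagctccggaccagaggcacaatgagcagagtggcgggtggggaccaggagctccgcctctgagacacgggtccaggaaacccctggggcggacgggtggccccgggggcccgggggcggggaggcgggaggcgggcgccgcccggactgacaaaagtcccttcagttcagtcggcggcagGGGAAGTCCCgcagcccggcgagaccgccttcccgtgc
Nfkb2: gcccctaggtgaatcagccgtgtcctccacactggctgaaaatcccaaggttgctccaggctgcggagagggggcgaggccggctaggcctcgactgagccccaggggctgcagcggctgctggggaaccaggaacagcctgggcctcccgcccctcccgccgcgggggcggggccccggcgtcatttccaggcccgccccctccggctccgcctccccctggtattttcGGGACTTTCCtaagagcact
Tnip1: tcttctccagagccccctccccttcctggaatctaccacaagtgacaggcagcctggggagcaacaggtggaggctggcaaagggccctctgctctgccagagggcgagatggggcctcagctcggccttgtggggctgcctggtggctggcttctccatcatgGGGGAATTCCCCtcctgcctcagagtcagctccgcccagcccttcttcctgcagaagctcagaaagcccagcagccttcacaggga
Nfkbie: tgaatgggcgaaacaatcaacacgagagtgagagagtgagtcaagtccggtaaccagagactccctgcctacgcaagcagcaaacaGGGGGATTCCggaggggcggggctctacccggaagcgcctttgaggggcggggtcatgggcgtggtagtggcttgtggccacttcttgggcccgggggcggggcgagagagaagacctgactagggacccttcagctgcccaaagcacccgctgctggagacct

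In Nfkbia, Bcl3 and Nfkb2 the match began 31, 38 and 20 bases before the start, and in Tnip1 it began 86 bases before it. In Nfkbie the match began 164 bases before the start. Overlapping matches, which the near-palindromic consensus gives on both strands, are counted as 1 site. Among the other higher genes, Tlr2 held GGGGAATTCCC beginning 206 bases before the start and Irak3 held GGGGCATCCC at 34 bases. Ptx3 held GGGGAACTCCC at 14 bases. Of the genes with no matched probe, Tnfaip3 held 3 sites, Rel held GGGAAATCCCC and Nfkbiz held GGGAATTTCC.

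In all, 11 of 38 windows (28.9%) held the consensus, against 3.82% of the windows of 27457 genes. Among genes with a window, it was present in 6 of 11 that were at least 2-fold higher. It was in 1 of 14 that were within 2-fold or lower. The higher gene Birc3 and the lower gene Ly96 had no window. None of the 4 windows of lower genes held it, nor did those of the higher genes Nod1, Map3k8, Zc3h12a, Nfkbib and Irak1. By role it was found in 4 of 5 IkB family genes, 2 of 4 subunits, 3 of 8 feedback and target genes, 1 of 12 adaptors and kinases and 1 of 9 receptors. Windows were at hand for 7753 of all genes measured on both arrays. Of these, the consensus was present in 7.38% of those at least 2-fold higher (58 of 786). It was in 5.56% of those lower (46 of 828) and 3.88% of those within 2-fold (238 of 6139). The 9-letter motif GGNNTTTCC, searched on both strands and partly overlapping the consensus, was present in 8 of 38 windows (21.1%), against 5.57% of all. It was in 3 of 11 higher genes and 1 of 14 within or lower, the latter being Icam1. Among all genes with a window that were measured on both arrays, this motif was at 5.22% in those higher and 5.80% in those lower. A match describes letters in a window and does not show binding. The list was chosen to include known NF-kappaB targets, so an excess of motifs over all genes was built into it. That excess is no result of these arrays, and the split between higher and other genes may follow from the same choice.

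**Figure D3:**
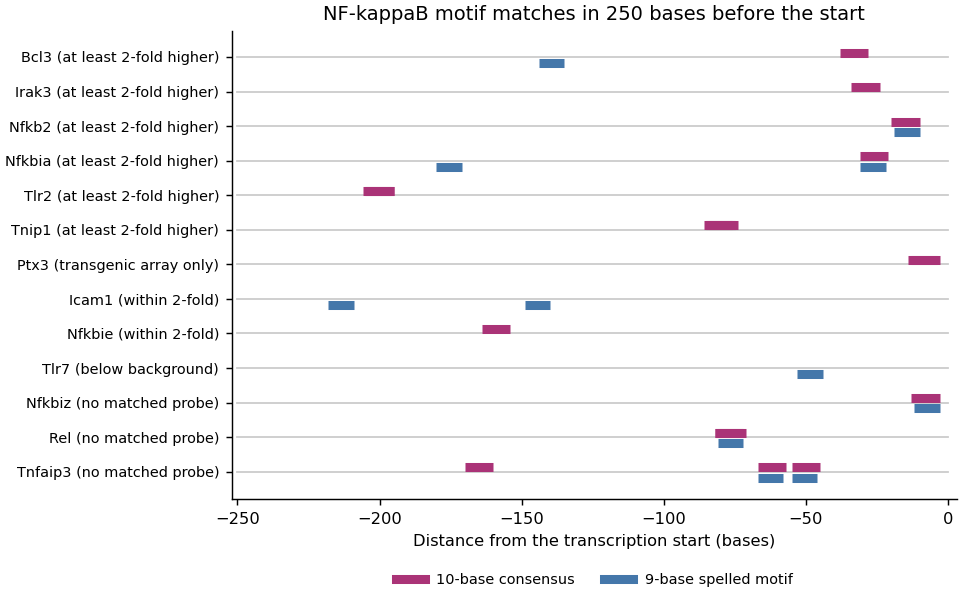
Positions of NF-kappaB motif matches in the 250 bases before the transcription start (x axis, bases from the start) for the 13 genes with at least 1 match, with the expression state of each in brackets. Purple bars are the 10-base consensus and blue bars the 9-letter motif. In Nfkbia, Bcl3, Irak3, Nfkb2, Ptx3 and Nfkbiz a consensus match lies within 40 bases of the start.

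Other genes of the pathway formed a list of 50, of which 33 were measured on both arrays. Of these, 6 (18.2%) were higher, against 10.5% of all genes, 3 (9.09%) were lower, against 10.3%, and 24 lay within 2-fold. Their median was 0.05 log2. The largest difference was in Lbp, the lipopolysaccharide-binding protein, with 140 units in control and 4474 in transgenic (26.9-fold higher). Cd14, the surface protein that hands lipopolysaccharide to MD-2, was 3.45-fold higher. On the scale used here, the soluble and surface carriers Lbp and Cd14 were thus higher in transgenic while Tlr4 and Ly96 were lower. With spike-in scaling Tlr4 (-0.52) and Ly96 (-0.04) lay within 2-fold. Cd14 is also among the macrophage markers described above. Tnfaip8 was 5.29-fold higher. Peli1, a ubiquitin ligase that acts on IRAK proteins, was 2.94-fold higher, the MAP kinase phosphatase Dusp1 2.81-fold and the adaptor Traf2 2.59-fold higher. Irf7 and Usp18, both induced by interferon, were 5.15-fold and 2.28-fold lower. Traf6, the ligase between IRAK and TAK1, differed by -0.48 log2. Tbk1 was above background in transgenic only, at least 1.54-fold higher on the scale used here (0.62 log2), but the authors' values gave 0.15 log2.

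Downstream lie secreted and enzyme targets of NF-kappaB, a list of 32, of which 30 were matched and 18 were measured on both arrays. In this list 12 (66.7%) were higher by the 2-fold rule, against 10.5% of all genes. Like the other pathway genes, these targets were listed with earlier results of these data known. The share is thus a description and no independent support. The 2 lower (11.1%, against 10.3% of all) were Cxcl10 (-2.89 log2) and Gadd45b (-1.69). The median was 2.33 log2. In transgenic only, 9 more were above background, and 1 was so in control only, against 3.46% and 2.9% of all genes. Among the 18 measured on both arrays, Ccl20 (10.52 log2), Cxcl1 (10.37), Csf3 (9.13) and Ccl7 (5.64) differed most. Some of the 9 had larger lower bounds on the scale used here, up to 13.55 log2 for Lcn2, for which the authors' values gave 11.47.

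The sizes above depend on how the arrays are scaled. Scaled on 8 E1A spike-in probes, RNAs added to each labelling reaction, all differences moved up by 0.99 log2. Then 20 of the 32 genes were at least 2-fold higher, against 44.7% of all genes. Only Tlr3 (-1.43) and Tlr6 (-1.59) were at least 2-fold lower, 2 of the 32, against 2.43% of all genes. Tlr4 came to -0.52, Map3k7 to -0.05 and Ly96 to -0.04. The median over the 32 stayed 0.52 log2 above that of all genes. All 12 higher genes were past 2-fold under each of 8 alternatives in scaling, background, source table and choice of probes, whereas of the 5 lower genes Tlr3 and Tlr6 were. Ly96 and Map3k7 reached -0.93 and -0.92 without the spike-in scaling, and Tlr4 -0.98. Some larger differences shrank by more than the scanner error with normexp and in the authors' values. In that order, Tlr2 was 3.92 and 3.9, Map3k8 3.76 and 3.78, and Zc3h12a 3.09 and 3.1. Likewise Birc3 was 1.84 and 1.87, Tlr3 -1.91 and -1.89, and Tlr6 -2.37 in both.

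**Figure D4:**
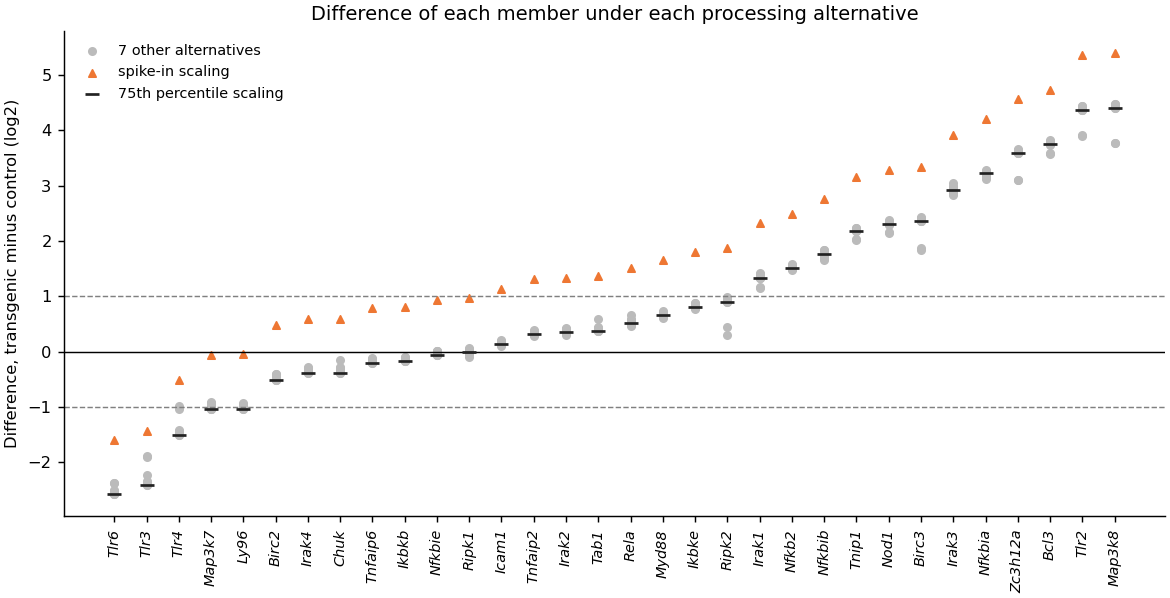
Difference of each of the 32 genes (y axis, log2, transgenic minus control) under 75th percentile scaling (black bars), spike-in scaling (orange triangles) and 7 other alternatives (grey points), with genes sorted by difference. Dashed lines mark 2-fold. The bars run from Tlr6 (-2.58) to Map3k8 (4.41), and the triangles sit 0.99 log2 above them.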

How the data were processed

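Total RNA labelled with Cy3 was hybridised to 1-colour rat arrays, 1 for each group. The deposited scanner files hold linear spot intensity. Agilent Feature Extraction 11.0.1.1 wrote them with background subtracted and no scaling between arrays, per the file headers. The deposited table of the authors' processed log2 values, with 23153 probes and unknown normalization and centring, served as an alternative. Its columns had medians of 7.20 and 7.18, and over probes above background its differences ran the same way as those computed here (r = 0.978 across probes, slope 0.815).

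Control spots and outlier-flagged spots (446 and 505) were left out, log2 processed signals were averaged per probe, and each array's 75th percentile was subtracted. A probe passed as well above background if more than 50% of its spots carried that flag. Probes were named through RefSeq accessions (GRCr8), which named 18005 of 30366 probes. Each gene was represented by its brightest probe over both arrays. For a gene detected on 1 array only, the fold is a lower limit on the scale used here. It is taken against the dimmest signal well above background, or the gene's own dim signal if brighter. All listed genes could be named. From other lists, up to 8 pathway genes past 2-fold, 4 bounds, and 4 markers or targets by size of difference were named, with defining markers and genes discussed beside them. Those beyond the rule (Traf6, Col1a1, Vim, Thy1, Pdgfrb, C1qa, Lcn2, Cxcl10, Gadd45b) were chosen after their values were seen. The genes and lists were chosen with earlier results of these data known.

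Alternatives were median, quantile, cyclic loess (limma 3.58.1) and spike-in scaling, normexp with an offset of 50 on median spot signals in place of the planned mean signals, the authors' values, the mean over probes, outlier spots kept, other dim-probe filters, and size rules of 1.5-fold and 3-fold. The steps were tested on simulated data. The planned protein comparison was not made.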

Additional observations from a re-analysis of the deposited data

How the results depend on the processing

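The number of genes at least 2-fold higher (12 of 32) moved by over 1.5 times only with spike-in scaling (20 of 32, against 44.7% of all genes). It moved by exactly 1.5 times in brighter genes (8), where only 18 were measured, against 10.2% of all genes. As a share of those measured, it did not fall there. The number lower (5 of 32) was 3 of 32 with median scaling, cyclic loess and normexp, against 9.0%, 8.96% and 6.87% of all genes. It was 2 of 32 with spike-in scaling (2.43% of all genes), the authors' processed values (7.69%) and a 3-fold rule (4.12%). In brighter genes it was 2 of 18 (7.73% of all). With median scaling and cyclic loess the share lower was thus near that of all genes, and in the authors' values it was below it. The median over the pathway genes was 1.43 with spike-in scaling and 0.74 in brighter genes. Spike-in scaling gave medians of -0.28 for receptors, 1.36 for adaptors and kinases, 2.0 for subunits, 3.48 for the IkB family, 1.31 for feedback and target genes, 1.04 for other pathway genes and 3.32 for secreted and enzyme targets, all moved by its 1 shift. The receptor median (-1.27) was -0.99 with normexp, -0.975 with the authors' values, and -0.20 without a filter on dim probes. It reversed to 0.64 in brighter genes, where fewer receptors are left. That of adaptors and kinases was 0.59 with the mean over probes and 0.67 in brighter genes. That of feedback and target genes was 1.25 without a filter, and that of secreted targets 4.53 without a filter and 4.50 in brighter genes. No gene past 2-fold changed sign under the 8 alternatives run for single genes. The causes of these moves were not otherwise tested. In the remaining 86 comparisons of these results with an alternative, the value moved less than the scanner error or, for a count, by at most 1.5 times. The number of arrays limits the precision. No paired analysis was possible because each group has 1 array.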
